A study of Mus musculus with 36 samples.

Results

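The comparison described here set control hearts that had been through pressure overload and had received MitoQ against control hearts after sham surgery, and asked which transcripts still differed. All members are libraries: 6 of the Con-TAC-MQ group and 6 of the Con-Sham group, 12 of the 36 in the series, chosen by their group labels alone. Con-TAC-MQ mice were of the genotype labelled Control, had transverse aortic constriction (TAC) and received MitoQ. Con-Sham mice were of the same genotype label, had sham surgery and received vehicle. Con-TAC mice (Control, TAC, vehicle, 6 libraries) served to show where the treated hearts differed from untreated overload. Tg-Sham and Tg-TAC-MQ mice (genotype labelled cSirt4-Tg, sham with vehicle or TAC with MitoQ, 6 libraries each) served for a test across genotype labels. No group of sham mice with MitoQ is among these labels, so the comparison combines surgery and compound. The labels state no strain, age, dose, time after surgery or promoter behind the cSirt4-Tg name. The labels number 6 samples a group without saying that each is a separate animal, so p-values measure the spread between these samples. RNA came from snap-frozen tissue labelled whole heart, but the share of atria, ventricles, vessels and blood in each library was not tested. The summed level of 6 atrial markers was 17413 in Con-TAC-MQ 5 and 1650 to 3987 in the rest of the 12 libraries, so atrial content may have been small and uneven.

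TAC narrows the aorta, and the left ventricle responds by growing. Cardiomyocytes then return to fetal gene products such as skeletal actin and the natriuretic peptides, fibroblasts deposit collagen, and oxidative metabolism declines. MitoQ is a ubiquinone joined to a lipophilic cation, which draws this antioxidant into mitochondria. Since bulk RNA was measured, fewer cells of a type and less RNA per cell cannot be told apart.

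The 12 libraries held 18.4 to 60.0 M assigned reads (25.9 to 60.0 M in Con-Sham, 18.4 to 39.3 M in Con-TAC-MQ). Values below are the deposited normalized read counts, and log2 differences were taken on the log2(value + 1) scale, which understates the change of low genes. Of 25626 listed genes 16275 passed the filter on low values. Library composition moved with the groups. The share of reads on Rn18s-rs5, which holds ribosomal RNA, was 3.50% to 11.01% in Con-Sham, 0.636% to 1.39% in Con-TAC-MQ and 1.55% to 9.22% in Con-TAC. The part of this shift in the results below was not tested. Each library is also named with a number that the labels leave unexplained, 20 or 21 in Con-TAC-MQ, and 11, 14, 29 or 30 in Con-Sham, so that group and name number cannot be told apart within the 12 libraries. Con-TAC-MQ 3 and Con-Sham 2 stood apart from their groups, with a mean correlation to the other 5 libraries of 0.950 and 0.953, against 0.967 to 0.976 for the other 10. Values without them are given beside the results that their removal moved most. The cardiomyocyte markers bore out that the tissue was heart. Myh6 stood at 1003980 ± 43329 normalized counts in sham and 795437 ± 203165 in treated hearts (mean ± SD, n = 6 each). Sirt4 was at 412 ± 96.6 and 353 ± 18.6 (log2 difference -0.19, SE 0.11, limma adjusted p = 0.385).

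Treated TAC hearts still differed from sham hearts in 115 of the 16275 genes, 0.707% of those tested (limma, Benjamini-Hochberg adjusted p under 0.05). Of these 57 were higher (0.35%) and 58 lower (0.356%), and 35 of the higher (0.215% of all tested) and 39 of the lower (0.24%) differed at least 2-fold. The 2 directions held different kinds of gene. Among 13869 protein-coding genes 52 were higher and 17 lower. Among 684 pseudogenes 1 was higher and 18 lower, and among 28 small RNAs 0 were higher and 5 lower. The median log2 difference over all genes was 0.017, and 53.0% of all genes had a positive difference. An unadjusted p under 0.05 was reached by 2734 of the 16275 genes, in either direction. The counts at that level given for lists below are to be read against this share.

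These counts depended on the libraries and on the model. Without Con-TAC-MQ 3 the test called 22 higher and 35 lower genes, and without both libraries that stood apart 21 and 28, of which 46 were among the 115. With only the 4 treated libraries of name number 20 it called 48 and 44, and with only the 2 of name number 21 it called 2 and 16. Against only the 3 Con-Sham libraries with name numbers 11 and 14 it called 12 and 22, and against only the 3 with 29 and 30 it called 13 and 23. All 115 kept their direction in each of these fits. A fit with a covariate for the class of the name number takes the difference between the class of 20 and 21 and the others from Con-TAC 6 alone, the only library of that class in a group that also holds another class. Its values therefore carry whatever set that 1 library apart from the rest of Con-TAC (mean correlation 0.934), and the lone library is assumed to vary like the others. It called 23 higher and 89 lower genes, with 10 of the 115 among them and 88 of the 115 in the same direction. When all libraries were scaled to 1 total for genes outside the mitochondrial genome, the median over all genes was 0.18, and 1605 genes were called higher and 81 lower. That total includes Rn18s-rs5, whose share differed between the groups. With TMM factors the median over all genes was 0.015, and with median-centred values it was -0.005. Of the 115 genes 44 were called in each of the 12 fits that left out 1 library, 15 of them higher and 29 lower. The plot of calls by setting shows these counts.

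**Figure D1:**
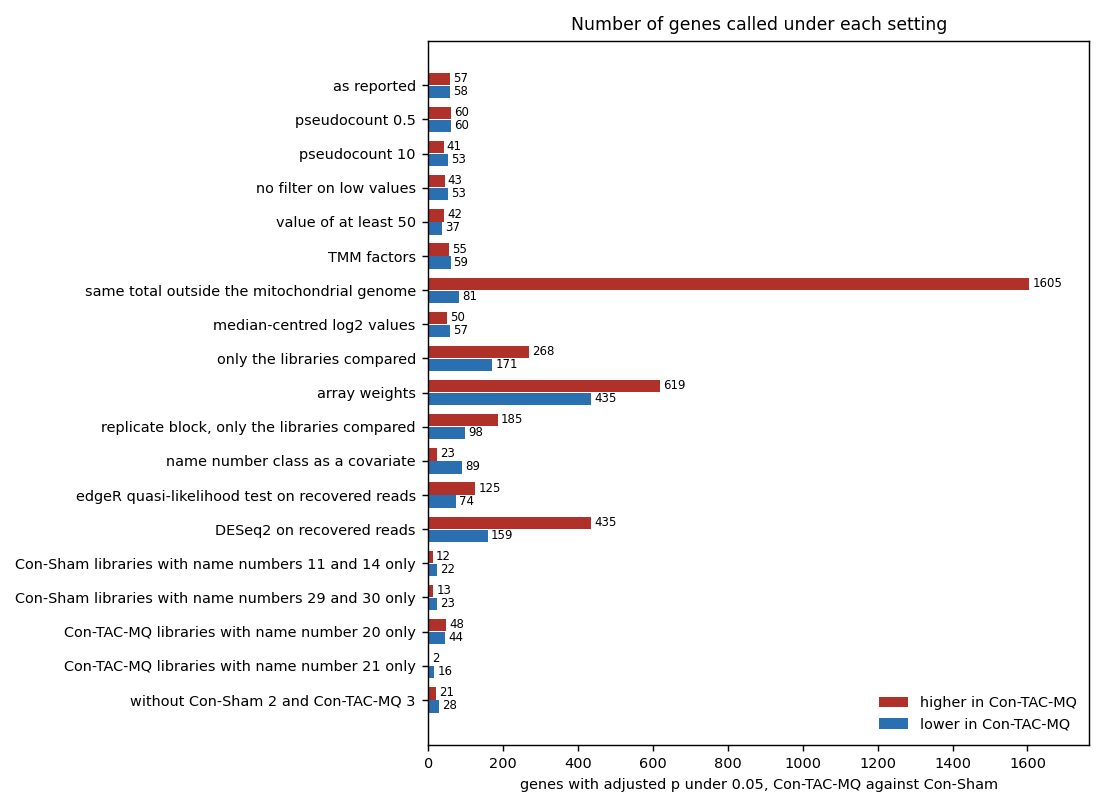
Bars give the number of genes with an adjusted p under 0.05 in Con-TAC-MQ against Con-Sham (horizontal axis, linear from 0), higher in red and lower in blue, for each setting on the vertical axis. The reported setting gave 57 and 58, and the extremes ran from 2 and 16 with the 2 treated libraries of name number 21 to 1605 and 81 with equal totals outside the mitochondrial genome.

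The promoter of the most changed sarcomeric gene is shown because its letters hold the elements by which this gene is known to be regulated. It covers the 250 bases before the RefSeq start of Acta1 (RefSeq table, GRCm38.p6, chr8:123894776-123895025, minus strand, printed 5′ to 3′ along the gene). Capitals mark, in order, a CArG box, the site known for serum response factor, an M-CAT element known for TEAD factors (CATTCC), and the letters TATAAA of a TATA box close to the start.
Acta1: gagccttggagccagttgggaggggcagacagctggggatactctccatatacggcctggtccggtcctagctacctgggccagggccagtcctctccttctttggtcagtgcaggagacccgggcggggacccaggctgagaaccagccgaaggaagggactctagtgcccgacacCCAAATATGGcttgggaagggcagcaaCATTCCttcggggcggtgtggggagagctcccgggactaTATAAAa
Searched on both strands, the CArG box was found in 1.47% of the 32851 promoters of the RefSeq table, CATTCC in 12.6% and TATAAA in 12.4%. Promoters were in the table for 47 of the 57 higher genes. By gene, these motifs were in 1.62%, 14.4% and 14.3% of the 27025 genes with a promoter. Of the 47, Acta1 and Ppbp (4.26%) held the CArG box, 8 (17.0%) held CATTCC and 12 (25.5%) held TATAAA. These are matches of letters, not evidence of binding.

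Acta1, skeletal muscle alpha-actin, a fetal heart product, had the largest increase among the called genes with a mean of at least 100 counts over the 12 libraries. Acta1 (ENSMUSG00000031972, mm39 chromosome 8, 124618508 to 124621490) ran from 3483 to 10127 normalized counts in Con-Sham with a median of 6572, and from 43719 to 163130 in Con-TAC-MQ with a median of 64931. The groups did not overlap. The log2 difference was 3.58 (SE 0.57, limma adjusted p = 0.000407), with all 6 treated libraries above sham, and the call held in each fit that left out 1 library. It was 3.02 against the sham libraries with name numbers 11 and 14 (adjusted p = 0.0665), 4.15 against those with 29 and 30, and 2.32 with the name class as a covariate (adjusted p = 0.292). Vehicle-treated TAC hearts held 27540 to 107859 counts, and the direct difference between treated and vehicle TAC was 0.04 with a 95% interval of -1.12 to 1.20. Gm29773, an antisense locus on the other side of the Acta1 start (mm39 chromosome 8, 124623012 to 124627359), was at 0 in 5 of 6 sham libraries and at 4.58 in the other. It was at 5.16 to 28.8 in the treated hearts (limma adjusted p = 0.029, and 0.103 without Con-TAC-MQ 3). This locus was picked after its values were seen. The annotated intervals of Gm29773 and Acta1 do not overlap, and the use of strand in the counting is not given. Whether reads from Acta1 transcripts reached this locus was not tested.

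Of the 24 tested fetal and hypertrophy genes 2 rose and 0 fell, Acta1 and Hspb7, and 21 had a positive difference (median log2 0.74, against 0.017 over all genes). Over all genes 0.35% were called higher. An unadjusted p under 0.05 was reached by 12 of the 24, all higher, and edgeR called 6 and DESeq2 10 higher. For 6 of the 24 the groups did not overlap, all higher in treated hearts, where 2.18% of all genes were higher and 2.0% lower without overlap. Hspb7, a small heat shock protein of the sarcomere, had 47748 to 58193 counts in Con-Sham and 62506 to 92056 in Con-TAC-MQ. Its log2 difference was 0.52 (SE 0.12, limma adjusted p = 0.0358), and the call was lost in 8 of 12 fits that left out 1 library (adjusted p up to 0.0894, without Con-Sham 5). Nrap, a protein of nascent myofibrils and intercalated discs, rose by 0.56 (SE 0.13, adjusted p = 0.0228, no overlap), and lost the call in 4 of these fits (up to 0.0757, without Con-TAC-MQ 3). The natriuretic peptides did not pass the test. Nppa (atrial natriuretic peptide) ran from 4266 to 7403 in Con-Sham and from 3905 to 32600 in Con-TAC-MQ (log2 1.42, SE 0.71, adjusted p = 0.306). In 5 treated libraries it lay above every sham library and in Con-TAC-MQ 1 below them. Nppb (brain natriuretic peptide) had 4009 to 5951 and 2934 to 24352 (log2 0.62, adjusted p = 0.442). Ankrd1, a stress-responsive ankyrin repeat protein, had 27651 to 71802 and 57866 to 230177 (log2 1.09, adjusted p = 0.115). Myh7, the slow fetal myosin, differed by 0.78 (adjusted p = 0.376), and Myh6, the adult fast myosin, by -0.38 (adjusted p = 0.385). Myh7 was highest in Con-TAC-MQ 5, at 82761 against 23005 to 46754 in the other treated libraries. The summed level of the 6 tested atrial markers was 17413 in that library, 1650 to 3633 in the other treated and 3288 to 3987 in the sham libraries, and its part in the Myh7 and Nppa values was not tested. Xirp2, an actin-binding repeat protein, showed no overlap (19407 to 21908 against 31382 to 110650) and did not pass (log2 1.20, adjusted p = 0.133). Without Con-TAC-MQ 3 and Con-Sham 2 the median of the list was 0.58 and Acta1 alone was called, and with the name class as a covariate the median was -0.21.

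Against the same sham libraries, vehicle TAC gave a log2 difference of 2.38 for Nppa, 1.59 for Nppb and 1.60 for Ankrd1. The direct differences, treated minus vehicle TAC, were -0.95 (95% interval -2.40 to 0.49), -0.96 (-1.80 to -0.13) and -0.51 (-1.19 to 0.16). None passed the test over all genes (limma adjusted p = 0.498, 0.192 and 0.427).

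**Figure D2:**
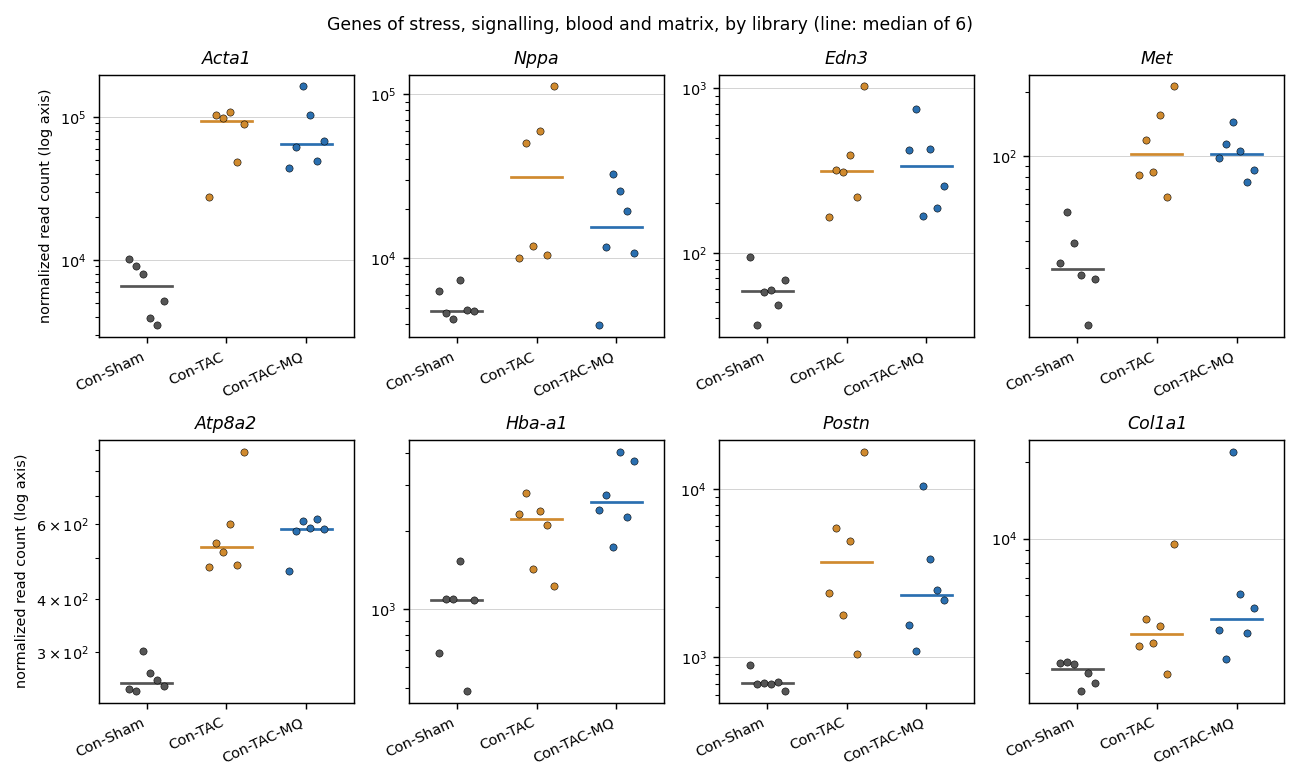
Each panel plots 1 gene, with the normalized read count of each library on a logarithmic vertical axis and the groups Con-Sham (grey), Con-TAC (orange) and Con-TAC-MQ (blue) along the horizontal axis, and lines mark medians of 6. Acta1, Edn3, Met, Atp8a2 and Hba-a1 show no overlap between Con-Sham and Con-TAC-MQ, while Nppa overlaps in Con-TAC-MQ 1, and Con-TAC-MQ 3 is the highest treated library for Postn and Col1a1.

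Several called genes encode secreted signals or receptors. Edn3 encodes endothelin 3, a vasoactive peptide. It had 36.3 to 94.4 counts in Con-Sham (median 58.7) and 168 to 753 in Con-TAC-MQ (median 339). The ranges were apart, and the log2 difference was 2.44 (SE 0.50, limma adjusted p = 0.0118). Inhba, the activin A subunit, had 30.2 to 72.9 against 60.6 to 674, so that Con-TAC-MQ 4 fell within the sham range (log2 1.87, SE 0.41, adjusted p = 0.0182). Fstl3, which binds and neutralizes activins, had 72.5 to 125 against 178 to 757 (log2 1.57, SE 0.37, adjusted p = 0.0337), with Con-TAC-MQ 3 far above the other treated libraries. Bambi, a decoy receptor of the TGF-beta family, differed by 0.76 (SE 0.18, adjusted p = 0.0281). Met, the receptor of hepatocyte growth factor, had 16.1 to 55.0 counts in sham and 75.8 to 145 in treated hearts (log2 1.70, SE 0.31, adjusted p = 0.00199). Edn3 and Met kept their calls in all 12 fits that left out 1 library, while Inhba kept it in 9 and Fstl3 and Bambi in 5. Without Con-TAC-MQ 3 alone the adjusted p was 0.0777 for Inhba, 0.13 for Fstl3 and 0.08 for Bambi.

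In the TGF-beta and myofibroblast list 3 of 34 tested members rose (Edn3, Inhba and Fstl3) and 0 fell, where 0.35% of all genes were called higher. Of the 34, 30 were positive and 14 were higher at an unadjusted p under 0.05, and edgeR called 3 and DESeq2 8 higher. The median of the list was 0.43. The median was 0.28 without Con-TAC-MQ 3, 0.30 without both libraries that stood apart, and -0.43 with the name class as a covariate. The vehicle TAC differences of Edn3, Inhba, Fstl3, Bambi and Met were 2.51, 1.07, 1.53, 0.94 and 1.81. The direct differences between treated and vehicle TAC were -0.06 (95% interval -1.08 to 0.96) for Edn3 and -0.11 (-0.73 to 0.51) for Met. For Inhba the direct difference was 0.80 (-0.04 to 1.64, limma adjusted p = 0.292).

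Matrix genes lay mostly above sham, but only 1 passed the test. There were 96 tested members in 4 lists of collagens, matricellular proteins, elastic fibre genes and matrix enzymes. Of these 86 were positive, 26 were higher without overlap, and 1, Mmp3, was called (median log2 0.59). Over all genes 53.0% were positive, 2.18% were higher without overlap and 0.35% were called higher. All 22 collagen chains were positive (median 0.75), 8 without overlap, and 19 had an unadjusted p under 0.05, but 0 were called by limma, against 2 by edgeR and 17 by DESeq2. The 29 matricellular proteins had 0 calls (15 higher and 1 lower at an unadjusted p under 0.05, 5 by edgeR, 12 by DESeq2). So had the 17 elastic fibre genes (9 higher at an unadjusted p under 0.05, 2 by edgeR, 6 by DESeq2). Mmp3, stromelysin, which degrades matrix proteins, had 5.50 to 47.2 counts in sham and 51.6 to 857 in treated hearts (log2 2.21, SE 0.55, adjusted p = 0.0493). That call was lost in 10 of 12 fits that left out 1 library (up to 0.168, without Con-TAC-MQ 3). Lum, the collagen-binding proteoglycan lumican, had 969 to 1431 against 1501 to 2848 (log2 0.74, SE 0.19, adjusted p = 0.0534). Fbln2, an elastic fibre protein, had 1869 to 2308 against 3047 to 9640 (log2 1.02, adjusted p = 0.0674), and Col8a1, a short-chain collagen, 431 to 537 against 1064 to 4379 (log2 1.67, adjusted p = 0.0978). For these 3 genes every treated library lay above every sham library.

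Most markers of activated fibroblasts also had positive differences, and none passed the test. Postn, periostin, had 636 to 898 counts in Con-Sham and 1094 to 10322 in Con-TAC-MQ (log2 1.89, adjusted p = 0.143). Cilp, a matrix protein of activated cardiac fibroblasts, had 130 to 280 against 452 to 1593 (log2 2.20, adjusted p = 0.086). Col1a1, which is not in this marker list, had 2549 to 3299 against 3388 to 21844 (log2 0.99, adjusted p = 0.143). Each of the 3 was higher in 6 of 6 libraries without overlap. Of the 10 markers 9 were positive and 1, Acta2, which is also in the smooth muscle list, was negative (log2 -0.40). Their median was 1.33 with 0 calls (6 at an unadjusted p under 0.05, 1 by edgeR, 5 by DESeq2). The summed level of these markers was 3214 to 7117 in Con-Sham and 4431 to 27590 in Con-TAC-MQ, the highest being Con-TAC-MQ 3. Without that library and Con-Sham 2, the median of the collagen chains was 0.53 and that of the activated fibroblast markers 0.97, and with the name class as a covariate these medians were -0.46 and -0.94. In vehicle TAC the medians against the same sham libraries were 0.51 and 1.92. No member of the 4 matrix lists was called between treated and vehicle TAC. Markers of resting fibroblasts lay above sham too. Of 14 such markers 12 were positive, and 4 were higher without overlap, as were 2.18% of all genes. The median of the 14 was 0.42 with 0 calls (7 at an unadjusted p under 0.05, 1 by edgeR, 3 by DESeq2). Their median was 0.32 without Con-TAC-MQ 3 and Con-Sham 2, -0.16 with the name class as a covariate, and 0.46 in vehicle TAC against sham.

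**Figure D3:**
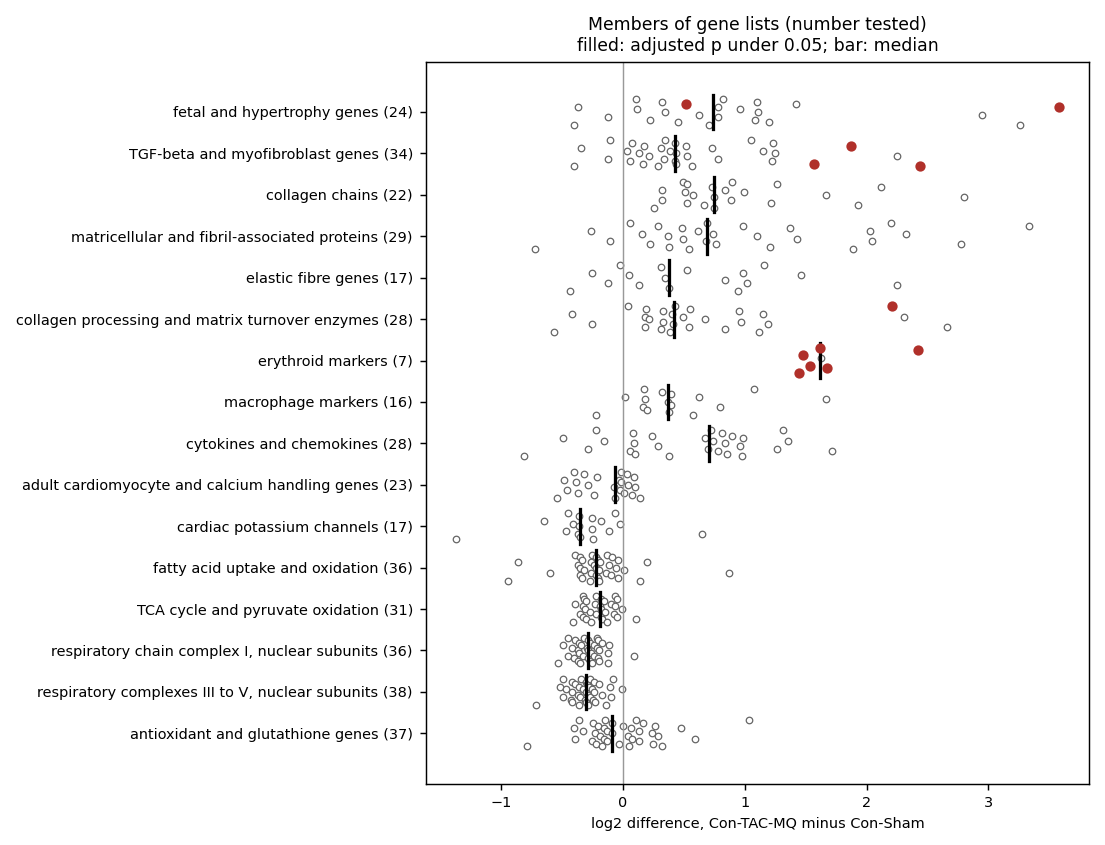
Each point is 1 gene, placed by its log2 difference between Con-TAC-MQ and Con-Sham (horizontal axis), in the list named on the vertical axis with its number of tested members. Filled red points passed an adjusted p of 0.05 and black bars are medians. The fetal, matrix and erythroid lists lie mostly to the right of 0, and the respiratory chain lists mostly to the left.

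Red cell transcripts rose as a group. Of 7 erythroid markers 6 rose and 0 fell (median log2 1.62, lowest 1.44), and the 6 showed no overlap. Over all genes 0.35% were called higher and 2.18% were higher without overlap. Alas2, the erythroid enzyme that starts haem synthesis (ENSMUSG00000025270, mm39 chromosome X, 149330371 to 149353634), had 83.1 to 223 counts in Con-Sham (median 153) and 335 to 595 in Con-TAC-MQ (median 412). The log2 difference was 1.62 (SE 0.26, limma adjusted p = 0.000521). Hba-a1, an alpha globin, had 488 to 1530 against 1738 to 4030 (log2 1.53, SE 0.29, adjusted p = 0.00476). The beta globins Hbb-bs and Hbb-bt rose by 1.48 and 1.68 (adjusted p = 0.0102 and 0.00177), and the alpha globin Hba-a2, nearly identical in sequence to Hba-a1 so that reads could be split between them, by 1.44 (adjusted p = 0.029). Slc4a1, the anion exchanger of the red cell membrane, was low, at 0 to 9.39 against 5.77 to 39.98, and did not pass (adjusted p = 0.245). Alas2, Hba-a1, Hbb-bs and Hbb-bt kept their calls in each fit that left out 1 library, while Hba-a2 lost it in 6 of 12 (adjusted p up to 0.102, without Con-Sham 5). All 6 were called without the 2 libraries that stood apart. Hbb-bs, Hbb-bt and Hba-a2 also kept them with the name class as a covariate. Within the treated group the median of the 7 markers was 1.56 for name number 20 and 1.67 for 21. The summed level of the 7 markers was 1456 to 4432 in sham, 3768 to 8491 in vehicle TAC and 5764 to 13288 in treated hearts, so that the treated and sham ranges were apart. The part of retained blood in these values was not tested.

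The promoter of Alas2 is shown because of a GATA motif, the site known for the erythroid factor GATA1 (RefSeq table, GRCm38.p6, chrX:150547167-150547416, plus strand). Capitals mark AGATAA on the opposite strand.
Alas2: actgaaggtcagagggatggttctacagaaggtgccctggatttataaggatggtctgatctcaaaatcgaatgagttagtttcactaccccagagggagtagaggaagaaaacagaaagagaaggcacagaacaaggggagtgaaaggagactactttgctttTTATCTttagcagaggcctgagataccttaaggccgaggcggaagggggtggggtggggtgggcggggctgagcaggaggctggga
The motif was found in 9.99% of all promoters, in 11.4% of genes with a promoter and in 4 (8.51%) of the 47 higher genes with a promoter, namely Alas2, Hbb-bs, Slc24a2 and Tal1. Tal1, a blood and endothelial transcription factor, rose by 0.43 (SE 0.11, limma adjusted p = 0.0479), and lost the call in 8 of 12 fits that left out 1 library (up to 0.141, without Con-Sham 2). Ppbp, a platelet chemokine, was low in both groups, with 2.20 to 4.84 counts in sham and 9.63 to 43.8 in treated hearts (log2 2.15, adjusted p = 0.0194, and 0.081 without Con-TAC-MQ 3). Of 14 endothelial markers 10 were positive with a median of 0.09 and 0 calls (3 at an unadjusted p under 0.05, 0 by edgeR, 1 by DESeq2).

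Other higher genes had separate roles. Atp8a2, a flippase that moves phospholipids across membranes, had the smallest p among the higher genes, with 243 to 301 counts in sham and 467 to 619 in treated hearts. The log2 difference was 1.13 (SE 0.16, limma adjusted p = 5.06e-05). It kept the call in 29 of 30 alternative fits and lost it with the name class as a covariate (log2 0.21). Nlrc3, a regulator of innate immune signalling, had 45.9 to 72.0 against 182 to 447 (log2 2.27, SE 0.50, adjusted p = 0.0181, and 0.0644 without Con-TAC-MQ 3). Tnfrsf23, a decoy receptor of the TNF family, had 68.2 to 96.4 against 115 to 271 (log2 1.02, adjusted p = 0.0121, and 0.0577 without Con-TAC-MQ 3). Pde8a, a cyclic AMP phosphodiesterase, rose by 0.59 (adjusted p = 0.0132), and Piezo1, a mechanically gated channel, by 0.59 (adjusted p = 0.0181, and 0.0777 without Con-TAC-MQ 3), each without overlap. Vehicle TAC differed from the same sham libraries by 1.13 for Atp8a2, 2.60 for Nlrc3, 0.64 for Pde8a and 0.31 for Piezo1. Bdh1, the mitochondrial enzyme that starts ketone body use, had 2441 to 4140 against 3984 to 7123 (log2 0.82, adjusted p = 0.0401). The call was kept in 3 of 12 fits that left out 1 library (adjusted p up to 0.0991, without Con-Sham 4). It was the only call among 23 genes of ketone body and branched-chain amino acid use, of which 21 were negative.

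Energy metabolism genes lay slightly and widely below sham without passing the test. Of 74 nuclear respiratory chain subunits 73 were negative, all but Ndufb2, with a median of -0.29. Over all genes 53.0% were positive. For 28 of the 74 the groups did not overlap, all lower in treated hearts, where 2.0% of all genes were lower without overlap. Of the 74, 35 had an unadjusted p under 0.05, against 2734 of all 16275 genes in either direction. None was called by limma or edgeR, and DESeq2 called 1 lower in complex I and 2 in complexes III to V. Uqcr10, a complex III subunit, had 4182 to 5082 counts in sham and 2801 to 3746 in treated hearts (log2 -0.49, SE 0.13, limma adjusted p = 0.0673). Ndufa7, a complex I subunit, had 2891 to 4017 against 1953 to 2512 (log2 -0.45, adjusted p = 0.10). The median of the 74 was -0.09 for vehicle TAC against the same sham libraries, and -0.23 for treated minus vehicle TAC, with 0 members called there. Of 36 genes of fatty acid uptake and oxidation 32 were negative (median -0.22, 0 calls by limma, edgeR and DESeq2, 2 at an unadjusted p under 0.05). Etfb, an electron carrier of that pathway, had 233 to 482 against 129 to 217 (log2 -0.86, adjusted p = 0.138). Of 31 TCA cycle and pyruvate oxidation genes 30 were negative (median -0.18, 0 calls by the 3 tests, 6 at an unadjusted p under 0.05), with Pdk2, a pyruvate dehydrogenase kinase, at -0.39 (adjusted p = 0.193). Of 17 cardiac potassium channels 16 were negative (median -0.35, 0 calls by the 3 tests, 5 at an unadjusted p under 0.05), the smallest p being that of Kcnk3, a background channel (log2 -0.37, adjusted p = 0.172). Without Con-TAC-MQ 3 the medians were -0.21 for complex I, -0.23 for complexes III to V, -0.076 for fatty acid genes, -0.10 for the TCA cycle and -0.18 for potassium channels. Without Con-Sham 2 as well they were -0.18, -0.20, -0.046, -0.096 and -0.19. With equal totals outside the mitochondrial genome the medians were -0.12 and -0.13 for complex I and complexes III to V, -0.05 for fatty acid genes and -0.02 for the TCA cycle. Those totals include Rn18s-rs5, and with them the median over all genes moved to 0.18 as well. With the name class as a covariate the medians of these lists were positive, at 0.61, 0.61, 0.68 and 0.51. Beside them, the summed cardiomyocyte markers, from 2277350 to 2582490 in Con-Sham, ran from 1426860 to 2351830 in Con-TAC-MQ, and their part in these differences was not tested. Tnnt2, a marker among them, differed by -0.40 (adjusted p = 0.126). Cytosolic ribosomal protein genes, which are outside energy metabolism, lay slightly below sham too. Of 42 tested 40 were negative (median -0.15, 0 calls by the 3 tests, 4 lower and 1 higher at an unadjusted p under 0.05). With equal totals outside the mitochondrial genome their median was 0.02. The 37 antioxidant and glutathione genes had 17 positive and 20 negative members and 0 calls by limma. At an unadjusted p under 0.05 there were 2 higher and 6 lower, and edgeR and DESeq2 each called 1 higher. Their median of -0.09 turned to 0.08 under equal totals.

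Lower genes were led by small nuclear and ribosomal RNAs. All 6 tested members of the list of small structural and ribosomal RNAs fell (median log2 -3.05). Rn7sk, the small nuclear RNA that holds the elongation factor P-TEFb inactive (ENSMUSG00002076161, mm39 chromosome 9, 78082585 to 78082915), had 1764 to 7997 counts in sham and 16.8 to 37.4 in treated hearts. Its log2 difference was -6.995 (SE 0.41, limma adjusted p = 9.91e-14), and it kept the call in all 30 alternative fits, at -6.10 with the name class as a covariate. In Con-TAC it had 32.7 to 139. Scarna2, which guides modification of spliceosomal RNA, fell by 4.91 (adjusted p = 1.22e-06) and Rn18s-rs5 by 2.93 (adjusted p = 1.01e-05). Lars2, annotated as the mitochondrial leucyl-tRNA synthetase, is known to hold a stretch like ribosomal RNA and fell by 1.66 (adjusted p = 0.0155). AY036118, a locus that overlaps the end of Rn18s-rs5 on chromosome 17, had 78.6 to 480 counts in sham and 1.29 to 10.4 in treated hearts (log2 -4.72, adjusted p = 3.93e-07). Gm56171 and Gm55094, short loci of 56 and 57 bases on chromosomes 1 and 9, had medians of 264 and 648 in sham against 14.0 and 35.1 (log2 -4.07 and -4.09, adjusted p = 8.65e-10 and 3.63e-08).

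**Figure D4:**
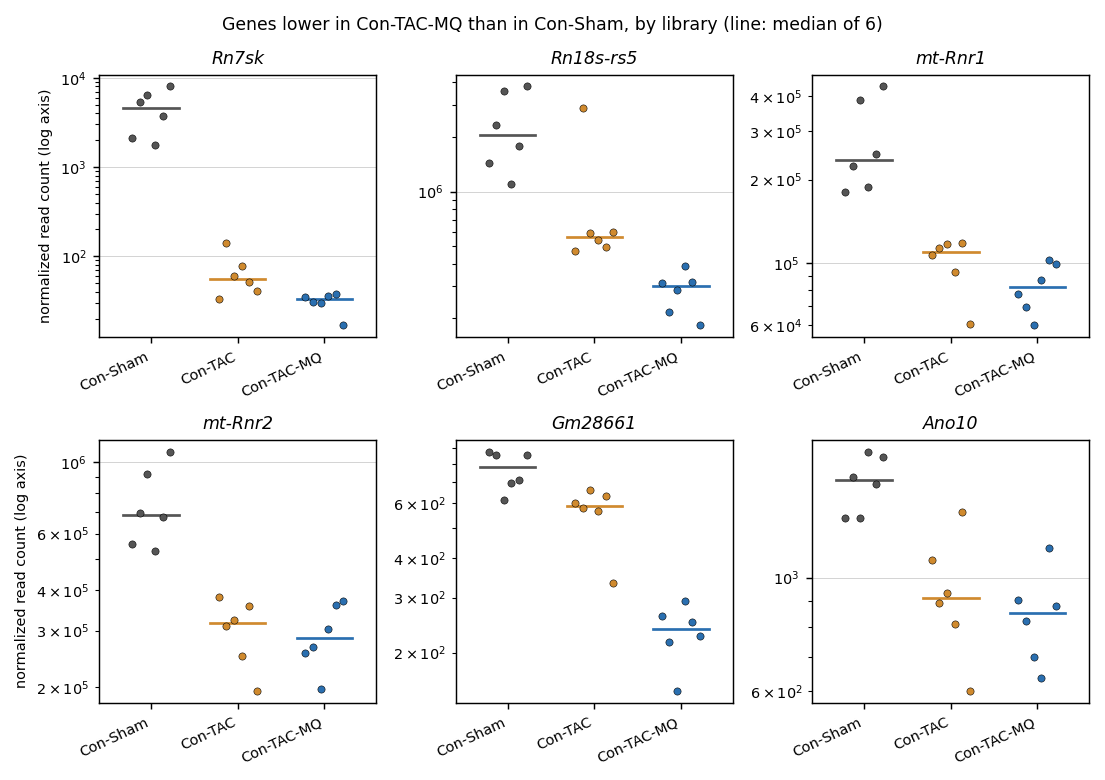
Each panel plots 1 gene, with the normalized read count of each library on a logarithmic vertical axis and the groups Con-Sham (grey), Con-TAC (orange) and Con-TAC-MQ (blue) along the horizontal axis, and lines mark medians of 6. Con-Sham and Con-TAC-MQ do not overlap in any panel, and for Rn7sk the vehicle TAC libraries, at 32.7 to 139, lie far below sham as well.

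Mitochondrial ribosomal RNA and copies of mitochondrial genes were lower too. The mitochondrial rRNAs mt-Rnr1 and mt-Rnr2 fell by 1.69 and 1.33 (limma adjusted p = 2.71e-05 and 0.000407), and in vehicle TAC they differed from the same sham libraries by -1.40 and -1.28. Of 12 mitochondrially encoded protein genes 1 fell and all were negative (median -0.23, and -0.13 without Con-TAC-MQ 3). This was mt-Co2, a cytochrome oxidase subunit, with 380 to 830 counts in sham and 136 to 228 in treated hearts (log2 -1.46, SE 0.24, adjusted p = 0.000638). On chromosome 1, from 24650616 to 24655278 (mm39), 5 pseudogenes with near-identical copies of mitochondrial genes all fell. Gm28661 had 616 to 877 counts in sham and 151 to 293 in treated hearts (log2 -1.74, SE 0.20, adjusted p = 3.93e-07). The counts of mt-Co2 and of these pseudogenes are uncertain, since reads that match both places could be split or dropped in the counting. Cox5b-ps (log2 -0.90, adjusted p = 0.0354) and Ldhb-ps (log2 -0.90, adjusted p = 0.0218), named as copies of abundant messages, fell as well. Without Con-TAC-MQ 3 their adjusted p was 0.115 and 0.0888. They carry the same doubt about shared reads.

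The annotation classes 17 of the 58 lower genes as protein-coding. Ano10, a calcium-dependent scramblase of the anoctamin family, had 1309 to 1764 counts in sham and 635 to 1144 in treated hearts (log2 -0.87, SE 0.15, limma adjusted p = 0.00116). Tfpi, the inhibitor of tissue factor, had 2253 to 2856 against 1237 to 2041 (log2 -0.70, adjusted p = 0.0118). Irf2bp2, a transcriptional co-repressor, had 1574 to 2417 against 887 to 1278 (log2 -0.72, adjusted p = 0.0256, and 0.0944 without Con-Sham 2). Pigh, an enzyme subunit of GPI anchor synthesis, had 124 to 184 against 68.5 to 114 (log2 -0.79, adjusted p = 0.0182, and 0.0615 without Con-Sham 4). None of the 4 overlapped between groups. Ano10 and Tfpi kept their calls in each fit that left out 1 library, and both turned to positive differences with the name class as a covariate (0.035 and 0.32).

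No immune or cell cycle list held a called gene. Ccr2, the chemokine receptor of recruited monocytes, had 24.5 to 78.6 counts in sham, 89.0 to 124 in 5 treated libraries and 1033 in Con-TAC-MQ 3 (log2 1.67, limma adjusted p = 0.104). Ccl2, its ligand, had 14.7 to 47.0 in sham, 35.3 to 156 in 5 treated libraries and 835 in Con-TAC-MQ 3 (adjusted p = 0.122). Of 28 cytokines and chemokines 23 were positive with a median of 0.71, and of 16 macrophage markers 15 with a median of 0.37. Limma called 0 in either list, edgeR 2 and 1, and DESeq2 4 and 2. At an unadjusted p under 0.05 there were 7 higher and 1 lower cytokines and chemokines, and 3 higher macrophage markers. The medians were 0.24 and 0.14 without Con-TAC-MQ 3, and 0.13 and 0.09 without Con-Sham 2 as well. The 29 cell cycle genes had a median of 0.66, which was 0.17 and 0.03 in these fits, with 0 calls by limma in each (6 at an unadjusted p under 0.05 with all libraries, 2 by edgeR, 10 by DESeq2). Slc7a5, an amino acid transporter, had 98.0 to 142 counts in sham and 169 to 471 in treated hearts without overlap (log2 0.91, adjusted p = 0.0575), and Egr3, an immediate early transcription factor, 6.41 to 33.8 against 38.5 to 135 (log2 1.76, adjusted p = 0.0534).

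To see where treated hearts differed from untreated overload, Con-TAC-MQ was tested against Con-TAC. The test called 526 genes, 3.23% of those tested, 313 higher (1.92%) and 213 lower (1.31%) in treated hearts. This count moved from 48 without Con-TAC 4 to 1756 without Con-TAC 6, the library with name number 20. With only these 12 libraries in the fit it was 26, 2 higher and 24 lower, and with array weights 2870. Of the 57 genes higher than in sham, 2 were also called against vehicle TAC, Cpn2 and Zfhx2, both higher in treated hearts. Of the 58 lower genes 24 were called against vehicle TAC, all lower in treated hearts. The 57 higher genes had a median log2 difference from sham of 1.28 in treated and 1.08 in vehicle TAC. The 58 lower genes had -1.44 and -0.45 in the same order. Both medians share the sham libraries, and the genes were chosen on the treated ones. The 5 genes with the smallest p against vehicle TAC were all lower in treated hearts. They were Gm29216 (log2 -1.49, limma adjusted p = 0.000113), Gm56171 (-2.58, 0.000164), Gm10443 (-1.50, 0.000245), Gm28661 (-1.26, 0.00078) and Gm55094 (-2.65, 0.00078). Gm29216 had 183 to 359 counts in treated, 527 to 943 in vehicle TAC and 457 to 649 in sham hearts. Among pseudogenes 75 of 684 were lower and 1 higher against vehicle TAC. Mt-Co2, mt-Co3 and mt-Atp6 were lower there as well (log2 -1.34, -1.18 and -1.04, adjusted p = 0.00391, 0.00391 and 0.0132). Counts of mt-Co3 were 96.9 to 166 in treated and 185 to 379 in vehicle TAC hearts, and those of mt-Atp6 57.7 to 98.9 and 91.7 to 208. These are small beside the summed 12 mitochondrially encoded genes, at 3854300 to 6584130 in treated hearts. The doubt about shared reads stated for mt-Co2 applies to all 3, and its part was not tested. No member of the fetal, collagen, matricellular, elastic fibre, matrix enzyme, TGF-beta or erythroid lists was called between the 2 TAC groups.

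The difference from sham was last tested between genotype labels, as the treated-TAC-minus-sham difference of cSirt4-Tg hearts less that of control hearts, which share no library. Limma called 0 of 16275 genes, 0.0% of those tested (smallest adjusted p = 0.9995, 408 genes at an unadjusted p under 0.05, 0 by edgeR and 0 by DESeq2). Acta1 differed from sham by 1.75 in cSirt4-Tg and 3.58 in control hearts, a difference of -1.83 with a 95% interval of -3.47 to -0.19. The 5 genes with the smallest p were Atp8a2, Met, Jaml, Ppbp and Plau. Atp8a2 differed from sham by 0.23 in cSirt4-Tg and 1.13 in control hearts (difference -0.90, 95% interval -1.37 to -0.44), and Met by 0.07 and 1.70 (-1.63, -2.51 to -0.75). Jaml, a leukocyte adhesion molecule, differed by 0.14 and 2.48 (-2.34, -3.70 to -0.98), Ppbp by -0.25 and 2.15 (-2.39, -3.78 to -1.01), and Plau, the urokinase plasminogen activator, by -0.61 and 0.60 (-1.21, -1.89 to -0.53). The intervals are not adjusted for the number of genes, and the first 4 of these genes had been called in control hearts. Over the 57 genes called higher in control hearts the median difference from sham was 0.29 in cSirt4-Tg hearts, with 53 positive, and over the 58 lower genes it was -0.80, with 57 negative. These genes were chosen for their difference in control hearts, so nothing about size can be read from these medians. Rn7sk differed by -6.39 and the 7 erythroid markers by a median of 0.76 in cSirt4-Tg hearts.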

How the data were processed

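RNA from whole hearts was sequenced with a directional library kit, per the labels' protocols. Trim Galore, STAR and the mm39 build are named in the submitters' processing notes, and versions, the counting tool and its use of strand are not stated there. The deposited signal values are normalized read counts: in every library they were whole multiples of the value of 1 read for all genes (100% within 0.01 read), so reads could be recovered. All 36 libraries were fitted with limma 3.58.1 (R 4.3.3, trend and robust options) on log2(value + 1), with 1 mean per group, 30 residual degrees of freedom and two-sided tests. Genes with 10 or more in 6 or more libraries were kept, which left 16275 of 25626, and p-values were adjusted by Benjamini-Hochberg over these at a threshold of 0.05. The fit was tried on simulated counts with planted differences, drawn from the sham means with the same dispersion for all genes. The simulation held no outlying library and no shift in composition, unlike these data, so it does not show how the fit performs on them. edgeR 4.0.16 and DESeq2 1.42.0 were run on the recovered reads as alternatives, beside other pseudocounts, filters, scalings, weights, covariates and left-out libraries. Leaving out Con-Sham 2 and Con-TAC-MQ 3 together was chosen after seeing the data. Same-numbered libraries of the 2 groups did not deviate together (correlations from -0.12 to 0.07), so numbers were not taken as pairs.

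Genes were named by rule: 8 fixed genes, up to 12 called genes a direction with the largest difference (mean of at least 100, no overlap), up to 3 called members or the member of smallest p in each list, and the 5 smallest p of the other comparisons. Nrap, Pde8a, Piezo1, Bambi, Tfpi, Tal1, Xirp2, Postn, Col1a1, Col3a1, Timp1, Slc4a1, Gm29773, mt-Co3, mt-Atp6, Cpn2, Zfhx2, Slc24a2 and Ndufb2 were chosen after their values were seen. The comparison, the 30 gene lists and the 18 marker lists were chosen with earlier results of these data known. Some called genes, 1 of them in the erythroid list, are not reported here by name.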

Additional observations from a re-analysis of the deposited data

Results flagged for a closer look

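The lowest and highest of the 6 libraries were examined in 148 groups of 6 values, for 74 genes in Con-Sham and Con-TAC-MQ, and 26 stood further from the nearest other library than Dixon's 95% critical value allows. That critical value assumes normally distributed values. It was applied to counts that were not log-transformed, for genes partly chosen on their values, so the number to be expected by chance is not known.

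Con-TAC-MQ 3 was the library that stood apart in 17 of them. It was highest for the matrix genes Col1a1 (21844 normalized counts, other treated libraries 3388 to 6091), Col3a1 (51016, others 5209 to 13857), Col8a1 (4379), Fbln2 (9640), Postn (10322), Mmp3 (857) and Timp1, an inhibitor of matrix proteases (4129, others 29.7 to 128). It was also highest for the chemokine Ccl2 (835), the receptor Ccr2 (1033), the mitotic gene Cdc20 (330), Fstl3 (757), Piezo1 (1951), Plau (442), Slc7a5 (471), Xirp2 (110650) and Gm29773 (28.8), and lowest for mt-Co2 (136). Timp1 (log2 2.66) and Col3a1 (log2 0.90) did not pass the limma test against sham (adjusted p = 0.125 and 0.206).

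Among the other treated libraries, Dkk3, an atrial marker, was at 2709 in Con-TAC-MQ 5 and at 79.1 to 183 in the others. Atp8a2 was lowest in Con-TAC-MQ 1 (467), Scarna2 highest in Con-TAC-MQ 1 (19.3) and Rn7sk lowest in Con-TAC-MQ 6 (16.8). In sham hearts, Con-Sham 2 was lowest for Mmp3 (5.50) and highest for Ndufa7 (4017) and Sirt4 (606). Postn was highest in Con-Sham 1 (898), and Gm29773 was above 0 in Con-Sham 6 alone (4.58).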

How the results depend on the processing

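The 115 called genes kept their direction under every alternative run except the name class covariate, where 88 did (with a minimum of 50, 87 of the 115 were tested and all kept it). Calls against sham, 115 in all, were 1686 (1605 higher) with equal totals outside the mitochondrial genome, 439 (268 higher, 171 lower) with the 12 libraries alone, 1054 (619 and 435) with array weights, 199 (125 higher) by edgeR and 594 (435 and 159) by DESeq2. They were 34 (12 and 22) against sham name numbers 11 and 14, 36 (13 and 23) against 29 and 30, 18 (2 and 16) with treated name number 21, and 49 (21 and 28) without Con-Sham 2 and Con-TAC-MQ 3. A minimum of 50 gave 37 lower calls, and the name class covariate 23 higher and 89 lower. Leaving out 1 library gave 57 to 105 calls, 22 to 52 higher and 35 to 55 lower, the lowest without Con-TAC-MQ 3, and 76 without Con-Sham 2.

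Calls against vehicle TAC, 526 in all, were 816 (689 and 127) with equal totals, 26 (2 and 24) with the 12 libraries alone, 2870 (1608 and 1262) with array weights, 323 (194 and 129) with no filter, 225 (63 higher) with the name class covariate and 826 (366 lower) by DESeq2. Leaving out 1 library gave 48 to 1756, with 14 to 1008 higher and 34 to 748 lower. The replicate number as a block gave 283 calls against sham (185 and 98) and 0 against vehicle TAC (0 and 0). Between genotype labels, array weights gave 1 call, lower, and leaving out 1 library 0 to 0.

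The name class covariate estimates the class of 20 and 21 from Con-TAC 6 alone, so genes that are extreme in that library shift by construction. With it these log2 differences from sham changed sign: Nppa -1.66, Nppb -0.31, Myh6 0.87, Myh7 -1.91, Tnnt2 0.30, Xirp2 -1.52, Inhba -0.18, Fstl3 -0.25, Mmp3 -0.30, Cilp -1.15, Col8a1 -0.87, Fbln2 -0.54, Postn -1.41, Col1a1 -0.49, Col3a1 -0.13, Timp1 -1.13, Nlrc3 -0.45, Tnfrsf23 -0.28, Pde8a -0.088, Piezo1 -0.21, Ano10 0.035, Tfpi 0.32, Ccl2 -0.73, Egr3 -0.84, Slc7a5 -0.072, Dkk3 -0.85, Uqcr10 0.22, Ndufa7 0.40, Ldhb-ps 0.14, Sirt4 0.34, Pdk2 0.48, Etfb 0.77, Plau -0.043, mt-Co3 0.092 and mt-Atp6 0.39. Nppb was -0.075 with treated name number 21, and the cause was not tested. Values near the filter rest on few reads, which limits Slc4a1, Ppbp, Jaml and Gm29773 most.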
